A study of Homo sapiens with 8 samples.

Results

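The genes described here run the protein factory of the endoplasmic reticulum (ER): the chaperones and enzymes that fold secreted and membrane proteins, the sensors and transcription factors of the unfolded protein response, the components of ER-associated degradation, and the translocon through which proteins enter. A set of 45 genes was named by symbol, and all 45 were found among the 21059 genes tested. Transcripts were counted by RNA sequencing of MDA-MB-157, an established breast cancer cell line labelled estrogen receptor negative, cultured in flasks with low glucose (5 mM, libraries LG1 to LG4) or high glucose (25 mM, libraries HG1 to HG4) for 48 hours. Per the study's methods, the medium held no serum in either group, and the comparison models hyperglycemia, with 5 mM as the control condition. All 8 libraries come from this line without any genetic change or drug, and none of the 8 is labelled as an osmotic control, so glucose and osmolarity cannot be told apart.

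Proteins enter the ER through the SEC61 channel and are folded by the chaperone BiP with its J-domain partners, by the lectin chaperones calnexin and calreticulin, and by disulfide and prolyl isomerases. When unfolded proteins accumulate, the sensors IRE1, PERK and ATF6 start the unfolded protein response: IRE1 splices the XBP1 transcript, PERK slows translation, and ATF6 is released from the membrane by proteolysis. The active transcription factors then raise chaperone and degradation genes, and proteins that cannot be folded are returned to the cytosol and destroyed by the proteasome. Splicing of XBP1, proteolysis of ATF6 and phosphorylation of PERK leave no trace in a value per gene and were not measured here.

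Each value is a count per 1000000 reads (CPM) after the authors' scaling between libraries. Differences are high minus low glucose on log2(CPM + 1), with the SE and the adjusted p of limma over all 21059 genes, and a gene was called at an adjusted p under 0.05. The table corresponds to an estimated 9721637 to 12482546 reads per library, and 3 reads amount to 0.212 to 0.267 CPM, so only members near that level are limited by depth. ESR1 was at 0 to 0.170 CPM in the 8 libraries, as its label says, whereas PGR was at 4.33 to 5.95 CPM, and VIM, KRT18, KRT8, ERBB2 and EPCAM were all present. Whether the replicate numbers name separate flasks or independent experiments is not described further. The p-values therefore set the difference between the groups against the spread between these samples only. In bulk RNA, fewer expressing cells and less RNA per cell cannot be told apart.

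Library HG1 stood apart from the other high glucose libraries along transcript length. Across 11223 genes with a mean of at least 5 CPM, the difference between HG1 and the mean of HG2 to HG4 had a Spearman correlation of -0.65 with length, given as a description since the genes share the libraries. For the 45 members the correlation was -0.77. HG1 was the highest of the 4 high glucose libraries in 14 of the 15 members with a transcript under 2000 bases, and the lowest in 0 of them. Of the 30 longer members, it was the highest in 15 and the lowest in 10. The median member was 0.23 above the other high glucose libraries if short and 0.04 above if long. The counts of members called are therefore given with and without this library. The shares of all genes called are given with all 8 libraries only, so counts without HG1 have no matching share. With the trend along transcript length removed, 18 of 44 members rose and 15 fell. The share of all genes called with that trend removed is not given here, so these counts cannot be set against a background. Removing the trend could also take out a difference between the groups along length, and what sets HG1 apart was not tested.

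**Figure D1:**
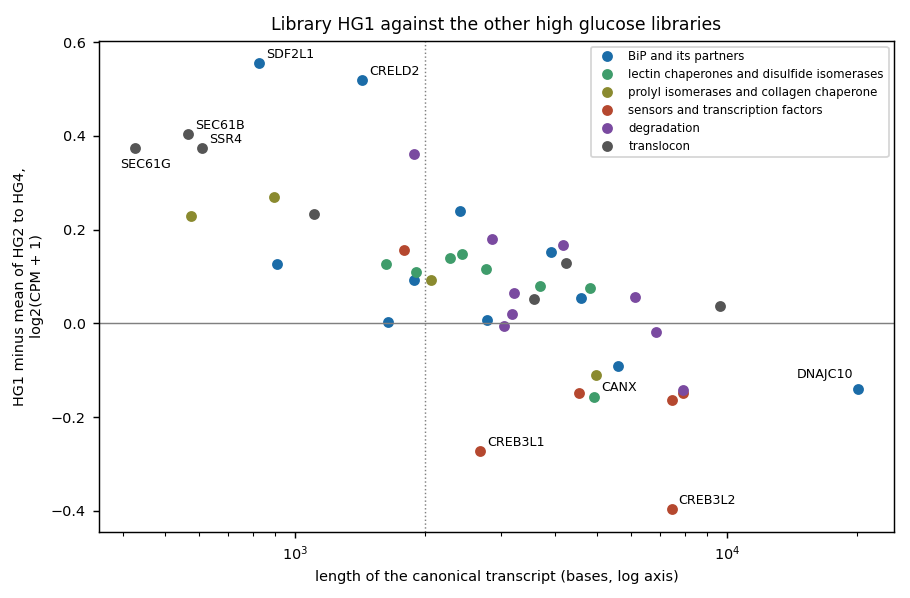
Difference between library HG1 and the mean of HG2 to HG4 on log2(CPM + 1), against the length of the canonical transcript in bases on a log axis, 1 point per member, coloured by role. Members under 2000 bases (left of the dotted line) lie at or above 0, and the lowest point is CREB3L2.

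Promoters of this response carry known elements, and they are shown first because the members that hold them did not move together. RefSeq windows on GRCh38.p14, 250 bases before to 50 bases after a start site, were available for 41 of the 45 members, and both strands were searched. The ER stress response element, ERSE, spelled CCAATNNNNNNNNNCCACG, was in 27 of 35116 windows (0.0769%) and, by gene, in 25 of 27305 symbols (0.0916%), 7 of them members: HSPA5, HSP90B1, CALR, CANX, PDIA6, CRELD2 and XBP1. In the stretches below, on the strand of the gene, capitals mark the element. CALR and CRELD2 carry it on the other strand, and HSP90B1 carries it on each strand. CANX carries it on the strand of the gene, from 9 bases before a start site, and its stretch is not shown.
HSPA5, chr9:125241381-125241419: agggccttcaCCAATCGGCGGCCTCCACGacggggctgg
HSP90B1, chr12:103930206-103930244: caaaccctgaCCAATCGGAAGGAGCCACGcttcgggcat
HSP90B1, chr12:103930311-103930349: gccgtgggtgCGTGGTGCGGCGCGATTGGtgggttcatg
CALR, chr19:12938374-12938412: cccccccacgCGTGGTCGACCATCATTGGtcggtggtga
PDIA6, chr2:10812843-10812881: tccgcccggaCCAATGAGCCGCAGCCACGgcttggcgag
CRELD2, chr22:49918544-49918582: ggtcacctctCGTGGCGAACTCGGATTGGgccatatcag
XBP1, chr22:28800593-28800631: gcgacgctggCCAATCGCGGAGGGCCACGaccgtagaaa

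The shorter element ERSE-II, spelled ATTGGNCCACG, was in 19 windows (0.0541%), among them those of HERPUD1, HYOU1 and SDF2L1. The core of the unfolded protein response element (UPRE), spelled TGACGTGG, was in 256 windows (0.729%), among them those of DNAJC10, HYOU1, SSR3 and SSR4, and in HYOU1 it overlaps an ERSE-II. HERPUD1 is shown because it was the member with ERSE-II that rose, and SSR3 and SSR4 because they moved in opposite directions with the same core, here on the other strand.
HERPUD1, chr16:56932015-56932045: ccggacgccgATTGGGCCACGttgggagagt
SSR3, chr3:156554149-156554176: ctgataacagCCACGTCAgcaaggaaac
SSR4, chrX:153794529-153794556: cagggaggggCCACGTCAgtgctgccag
Of the 7 members with ERSE, 1 rose at high glucose (CALR), 3 fell (PDIA6, CRELD2 and XBP1) and 3 were not called (HSPA5, HSP90B1 and CANX), where 33.6% of all genes with a mean of at least 5 CPM rose and 33.3% fell. Without HG1, CANX was also called, giving 2 higher and 3 lower, and the call of CRELD2 did not hold in most alternatives. A match is a run of letters and not a measured binding site.

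At high glucose, 15 of the 45 members rose, 16 fell and 14 were not called. Over all genes tested, 22.0% rose and 24.8% fell, and among genes with a mean of at least 5 CPM, which hold 44 of the 45 members, the shares were 33.6% and 33.3%. The members' share called was thus near that of other genes of similar level. Without HG1, 16 rose and 16 fell, and no share of all genes is given for that fit. The same 31 members were called in the same direction with and without it, and CANX was added. The groups did not overlap in 31 members, against 65.0% of genes with at least 5 CPM. The median change of the members was 0.04 on the log2 scale, and their median absolute change was 0.36, beside 0.35 for genes of at least 5 CPM. All members summed to 12369 to 12556 CPM per library at low and 12617 to 13358 CPM at high glucose. The most abundant members weigh most in this sum, so it does not describe the typical member. Of these, CANX had means of 2143 and 2394 CPM at low and high glucose, CALR 1653 and 2313 CPM, and P4HB 1529 and 1159 CPM.

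Each role held members called in both directions. Beside them, 33.6% of all genes with a mean of at least 5 CPM rose and 33.3% fell, with a median change of -0.007. Of the 23 folding genes, 5 rose, 9 fell and 9 were not called. Of the 6 sensors and transcription factors, 2 rose, 2 fell and 2 were not called. Of the 9 degradation genes, 6 rose, 2 fell and 1 was not called, with the highest median of the groups, 0.25. Of the 7 translocon genes, 2 rose, 3 fell and 2 were not called. Without HG1, the folding genes had 6 higher and 9 lower, and the other roles kept these counts. Whether the roles differ from each other was not tested.

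**Figure D2:**
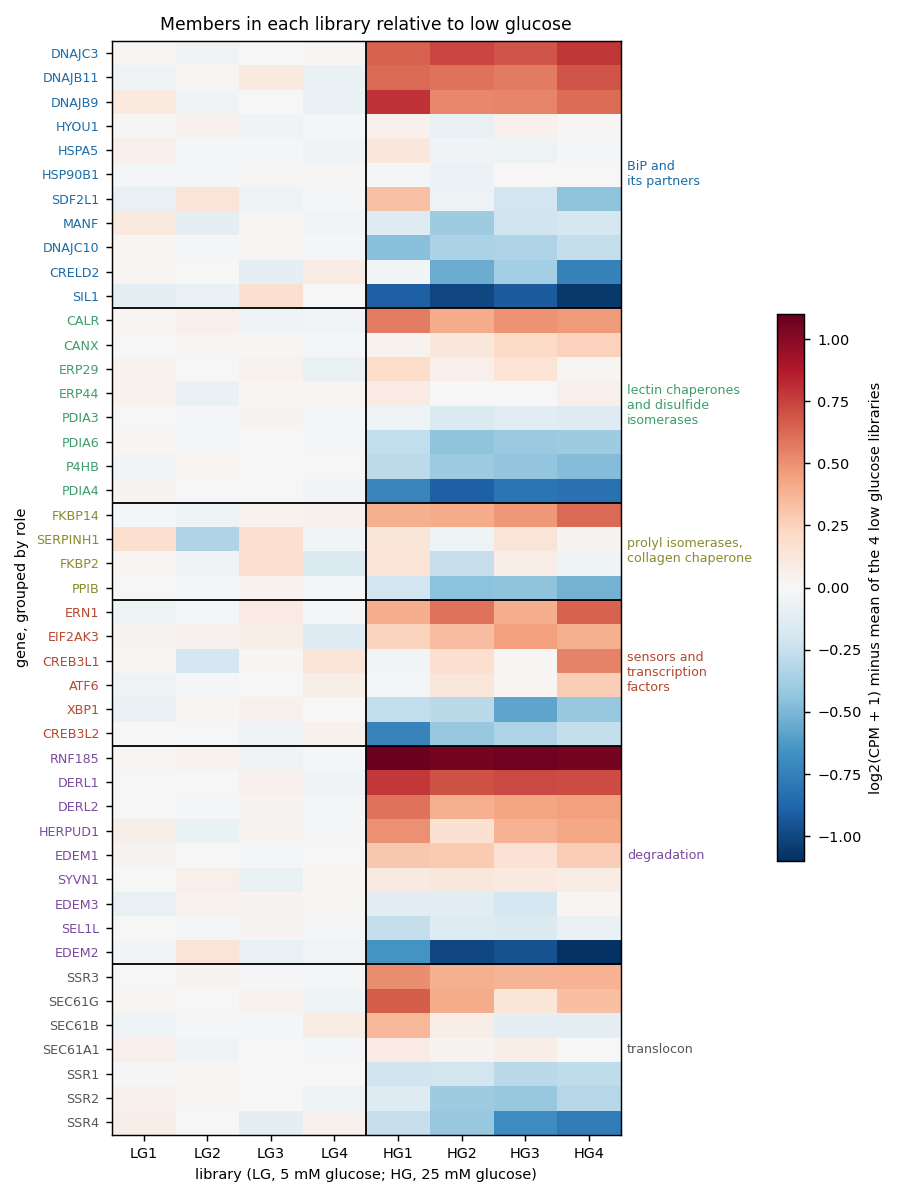
Log2(CPM + 1) of each member in each library minus its mean over the 4 low glucose libraries, with red above and blue below that mean, genes in rows grouped by role and libraries in columns. RNF185, DERL1 and the J-domain genes DNAJC3, DNAJB11 and DNAJB9 are red in every high glucose library, and SIL1, EDEM2 and PDIA4 are blue in every one.

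BiP itself (HSPA5), the abundant Hsp70 chaperone of the ER lumen, averaged 810.1 ± 23.8 CPM (SD, n = 4) in the low glucose libraries and 810.4 ± 44.6 CPM in the high glucose ones. The range was 789 to 844 CPM at low and 781 to 876 CPM at high glucose, with HG1 highest. Its log2 change of -0.00063 (SE 0.05, adjusted p = 1) did not hold up against the spread between replicates. The sign depended on the scaling, and under quantile normalization the change was 0.10 with an adjusted p of 0.018. HSP90B1 (GRP94), the ER member of the Hsp90 family, changed by -0.02 (SE 0.03) and HYOU1, an Hsp110-like exchange factor for BiP, by 0.01 (SE 0.04), and neither was called. Of the 31-base words of HSPA5 and HSP90B1, 18.7% and 26.6% also occur in other genes. SDF2L1, which works with J-domain partners of BiP, was low, at 5.07 to 9.32 CPM, and was not called.

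The partners of BiP moved in both directions. DNAJC3 (ENSG00000102580.15), the J-domain protein p58IPK, was at 168, 162, 166 and 169 CPM at low glucose and at 261, 277, 269 and 288 CPM at high glucose. All 4 high glucose libraries lay above all 4 low ones, and the log2 change was 0.72 (SE 0.03, adjusted p = 5.4e-06). DNAJB11 (ERdj3), a soluble J-domain partner that binds unfolded clients, was at 80.3, 84.8, 89.4 and 79.1 CPM and then at 129, 126, 124 and 135 CPM, a change of 0.62 (SE 0.05, adjusted p = 4.2e-05). Of its transcript's 31-base words, 26.2% also occur in other genes, and reads could be split there. DNAJB9 (ERdj4), which delivers BiP to IRE1, was at 30.2, 27.2, 27.9 and 26.6 CPM and then at 49.3, 40.7, 40.9 and 43.3 CPM, a change of 0.62 (SE 0.07, adjusted p = 3.2e-04). The 3 genes thus rose 1.65-fold, 1.54-fold and 1.56-fold in mean CPM, without overlap between the groups.

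SIL1, the nucleotide exchange factor that lets BiP release its client, went the other way. It was at 35.1, 35.9, 43.0 and 37.9 CPM at low and at 19.8, 18.4, 19.6 and 17.6 CPM at high glucose, a change of -0.97 (SE 0.07, adjusted p = 3.9e-05) and the largest fall among the 45 with all 8 libraries. Without HG1 it was -0.99, and EDEM2 fell further, with -1.01. DNAJC10 (ERdj5), a J-domain protein that reduces disulfide bonds of proteins bound for degradation, fell from 161 ± 2.55 to 126 ± 7.04 CPM (log2 change -0.35, adjusted p = 3.4e-04). MANF and CRELD2, both secreted proteins that are induced by ER stress, fell by 0.23 (adjusted p = 0.023) and by 0.42 (adjusted p = 0.047) on the log2 scale. The call of CRELD2 was near the threshold and was lost when any library other than HG1 was left out (adjusted p = 0.068 to 0.11). Its groups overlapped through HG1 (24.3 CPM against 14.5 to 19.0 CPM in the other high glucose libraries), and without HG1 its change was -0.55 (adjusted p = 0.0035). MANF lost its call when the length trend was removed (-0.11, adjusted p = 0.12) and when LG1 or LG3 was left out (adjusted p = 0.057 for each).

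Ratios of members within a library do not depend on the scaling between libraries. The pairs given here and below were not set in advance. HSPA5 was level and these partners did not overlap between the groups, so their ratios to HSPA5 restate those changes and are no separate support. DNAJC3 stood at 0.198 to 0.214 of the HSPA5 value at low and at 0.298 to 0.361 at high glucose, and SIL1 at 0.0416 to 0.0535 at low and 0.0221 to 0.0251 at high glucose. DNAJC10 went from 0.194 to 0.202 of the HSPA5 value at low to 0.133 to 0.168 at high glucose. Per BiP transcript there was more DNAJC3, DNAJB11 and DNAJB9 and less DNAJC10 and SIL1 in every high glucose library than in any low glucose one.

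**Figure D3:**
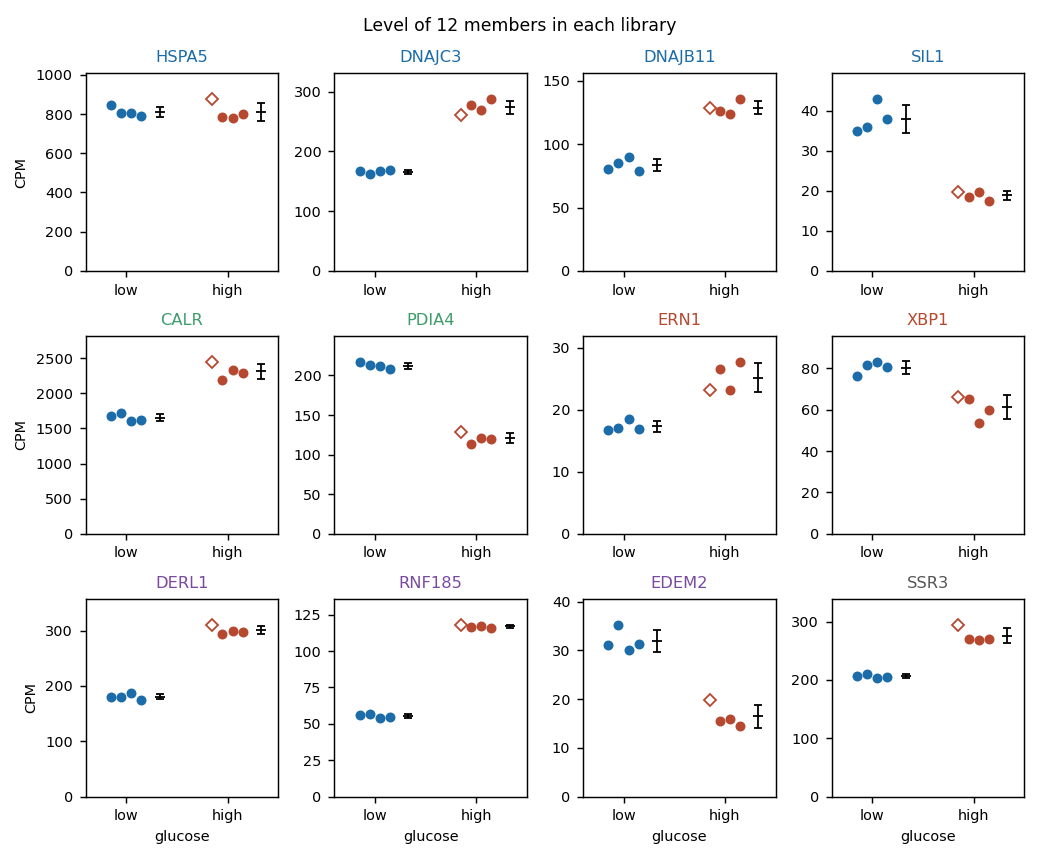
CPM of 12 members in each library, with low glucose in blue and high glucose in red, HG1 as an open diamond, and the mean with its SD in black beside the points. HSPA5 overlaps between the groups, and the other 11 genes do not. The 12 were picked for display and do not stand for all members. Over all 45 members, 31 did not overlap, against 65.0% of genes with a mean of at least 5 CPM.

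Among the lectin chaperones, CALR (calreticulin, in the ER lumen) rose and CANX (calnexin, its membrane-bound relative) was not called. CALR was at 1676, 1714, 1600.0 and 1622 CPM at low and at 2448, 2189.9, 2331 and 2282 CPM at high glucose, 1.40 times the low glucose mean. All high glucose libraries lay above the low ones, with a change of 0.48 (SE 0.05, adjusted p = 3.1e-04), and 14.2% of its exon bases face another gene on the opposite strand. CANX was at 2119.6 to 2160.3 CPM and then at 2204 to 2556 CPM, lowest in HG1. Its groups did not overlap, but the change of 0.16 (SE 0.06) had an adjusted p of 0.077, and without HG1 it was 0.20 with an adjusted p of 0.006. CANX was also called at a minimum of 5 CPM (adjusted p = 0.017) and under median-of-ratios scaling (0.039). The same held with the length trend removed (0.005) and with array weights (0.009). In the other alternatives CANX was not called, with a change of 0.04 under quantile normalization (adjusted p = 0.6). The ratio of CALR to CANX was 0.742 to 0.793 at low and 0.893 to 1.11 at high glucose.

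The disulfide isomerases PDIA3, PDIA4, PDIA6 and P4HB fell. PDIA4 (ERp72) was at 217, 213, 212 and 208 CPM at low and at 128, 114, 122 and 119.9 CPM at high glucose, a change of -0.81 (SE 0.04, adjusted p = 5.3e-06). P4HB, the classical protein disulfide isomerase and a subunit of collagen prolyl hydroxylase, was at 1496, 1555, 1531 and 1532 CPM and then at 1251, 1156, 1131 and 1098 CPM, a change of -0.40 (SE 0.05, adjusted p = 4.5e-04). Under quantile normalization it was -0.14 with an adjusted p of 0.05 and no longer called. PDIA6, which also restrains IRE1 signalling, was at 470.2, 458, 463 and 459 CPM and then at 382, 339.6, 349 and 352 CPM, a change of -0.38 (SE 0.04, adjusted p = 1.7e-04). In all 3 genes each high glucose library lay below each low one, with HG1 the highest of its group.

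PDIA3, the isomerase that works with calnexin and calreticulin, fell by 0.12 on the log2 scale (adjusted p = 0.011), and by 0.075 under median-of-ratios scaling (adjusted p = 0.042). ERP44, which retains client proteins in the early secretory pathway, and ERP29 were not called, at 0.04 and 0.10. ERP29 was called with the length trend removed (0.20, adjusted p = 6.5e-04) and under median-of-ratios scaling (0.15, adjusted p = 0.037). P4HB and PDIA6 have 21.7% and 45.3% of their exon bases on the strand opposite another gene's exons, and PDIA3 has 21.7%. Whether counting used the strand is not given in the sources used here, so those reads cannot be told apart.

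Among the prolyl isomerases, FKBP14, an isomerase that acts on collagen, was at 74.8, 73.2, 78.1 and 78.7 CPM at low and at 100.4, 102, 106 and 118 CPM at high glucose, a change of 0.48 (SE 0.05, adjusted p = 3.4e-04). PPIB (cyclophilin B), the abundant cyclophilin of the ER, was at 588, 578, 604 and 578 CPM and then at 509, 428, 432 and 408 CPM, a change of -0.41 (SE 0.07, adjusted p = 0.0022). The exons of PPIB overlap another gene on the other strand over 57.6% of their bases. SERPINH1 (HSP47), the collagen chaperone, was at 26.9, 18.6, 27.0 and 23.2 CPM and then at 26.1, 23.0, 26.2 and 24.2 CPM and was not called (0.06, SE 0.12). FKBP2 was at 30.6, 29.4, 34.3 and 26.9 CPM and then at 33.7, 25.2, 31.9 and 29.2 CPM, with a change of -0.02 (SE 0.11). All of its exon bases lie within another annotated gene on the same strand, so its value is uncertain.

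The sensors ERN1 and EIF2AK3 rose. ERN1 encodes IRE1, the kinase and RNase that splices XBP1. It was at 16.8, 17.0, 18.5 and 17.0 CPM at low and at 23.2, 26.6, 23.2 and 27.7 CPM at high glucose, without overlap, a change of 0.51 (SE 0.07, adjusted p = 7.9e-04). EIF2AK3, which encodes the kinase PERK, was at 33.6, 34.1, 34.6 and 29.8 CPM and then at 39.2, 41.9, 45.4 and 43.5 CPM, a change of 0.36 (SE 0.06, adjusted p = 0.0026), again without overlap, and 17.2% of its exon bases face another gene. ATF6 was at 25.0, 25.8, 26.0 and 27.2 CPM and then at 25.6, 28.5, 26.4 and 31.6 CPM. The groups overlapped, and its change of 0.10 (SE 0.07) was not called.

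The transcription factors XBP1 and CREB3L2 fell. XBP1, the target of IRE1, was at 76.1, 81.7, 83.2 and 80.6 CPM at low and at 66.3, 65.0, 53.5 and 60.1 CPM at high glucose, a change of -0.39 (SE 0.07, adjusted p = 0.0029). Each high glucose library was below each low one, and the value sums spliced and unspliced transcripts. The ratio of ERN1 to XBP1 was 0.208 to 0.223 at low and 0.349 to 0.462 at high glucose. CREB3L2, an ATF6-like membrane-bound factor that drives secretory pathway genes, was at 116, 117, 112 and 120.3 CPM and then at 69.4, 86.9, 91.5 and 96.9 CPM, a change of -0.44 (SE 0.10, adjusted p = 0.0089). HG1 was its lowest library, and without it the change was -0.34. CREB3L1 (OASIS), a relative known from bone and secretory cells, was at 0.250, 0.0828, 0.255 and 0.364 CPM and then at 0.212, 0.399, 0.247 and 0.800 CPM, around the level of 3 reads, and a difference was not detectable at this depth.

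**Figure D4:**
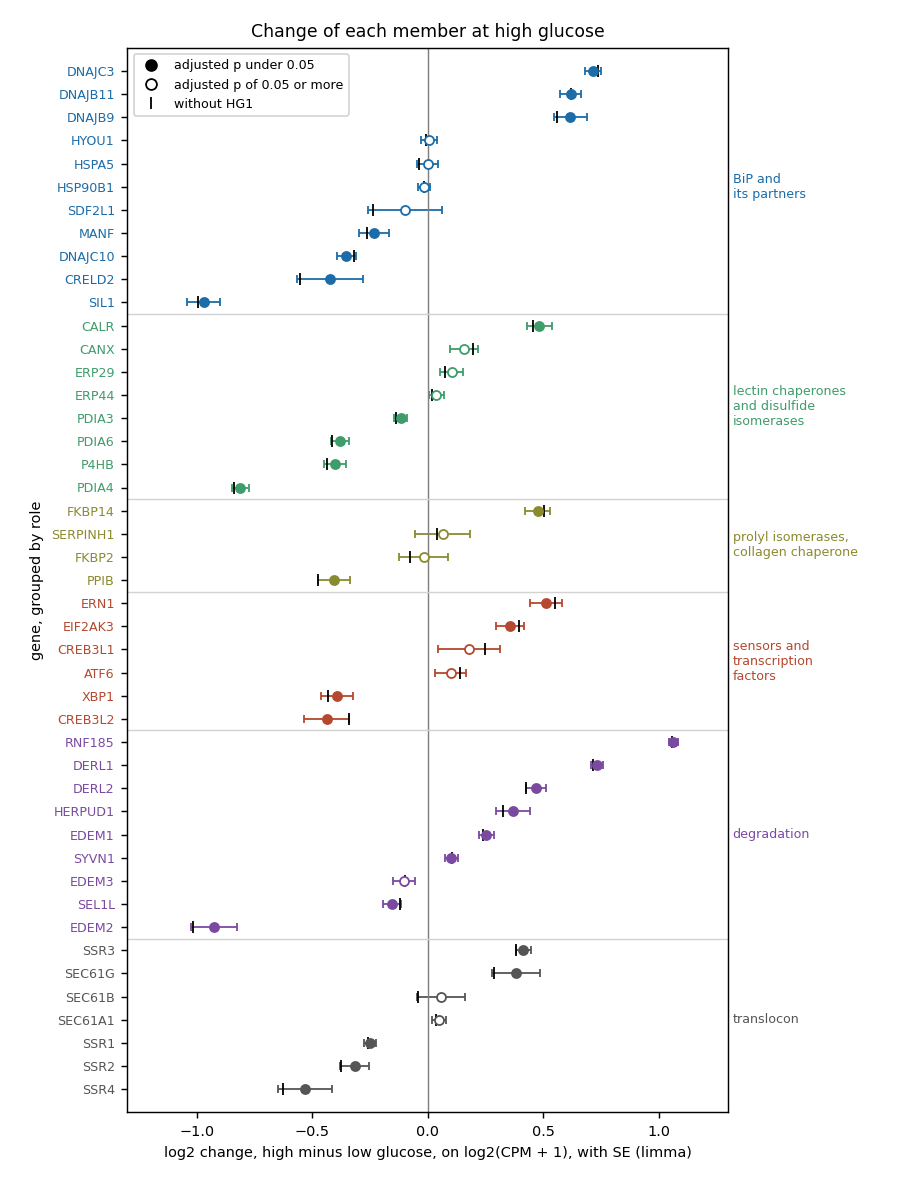
Log2 change of each member, high minus low glucose, with the SE from limma, filled where the adjusted p was under 0.05 and open where it was not, coloured by role. Black ticks give the change without HG1. The changes run from -0.97 (SIL1) to 1.06 (RNF185), and HSPA5, HSP90B1 and HYOU1 lie close to 0.

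Degradation held the gene with the largest change among the members. RNF185 (ENSG00000138942.16), a membrane ubiquitin ligase of ER-associated degradation, was at 56.1, 56.9, 54.1 and 54.7 CPM at low and at 118, 116, 117 and 116 CPM at high glucose. Within each group the libraries were within 3 CPM of each other, the mean rose 2.11-fold, and the change was 1.06 (SE 0.02, adjusted p = 3.4e-07). DERL1 (derlin 1), which forms part of the channel for proteins leaving the ER, was at 181, 180.2, 186 and 175 CPM and then at 311, 294, 299.9 and 298 CPM, a change of 0.73 (SE 0.03, adjusted p = 2.2e-06). DERL2, its paralog, was at 54.9, 53.9, 55.8 and 53.7 CPM and then at 82.8, 71.8, 74.2 and 74.7 CPM, a change of 0.47 (SE 0.04, adjusted p = 1.3e-04). Both derlins were highest in HG1. Exons of RNF185 and DERL1 overlap other genes on the opposite strand over 11.1% and 13.8% of their bases.

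The EDEM proteins, which trim mannose to mark glycoproteins for degradation, did not move as 1 family. EDEM2, which takes the first mannose, was at 31.2, 35.3, 30.1 and 31.2 CPM at low and at 19.9, 15.5, 15.9 and 14.5 CPM at high glucose, a change of -0.92 (SE 0.10, adjusted p = 2.6e-04). EDEM1 rose from 101 ± 1.53 to 121 ± 5.22 CPM (0.25, adjusted p = 6.1e-04), and EDEM3 was not called (-0.10). Without HG4 the change of EDEM3 was -0.14 with an adjusted p of 0.021, and under quantile normalization it was -0.19 (adjusted p = 0.015), while that of EDEM1 was 0.13 (adjusted p = 0.023). The ratio of EDEM1 to EDEM2 was 2.85 to 3.31 at low and 6.26 to 8.42 at high glucose.

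HERPUD1, a stress-induced scaffold of the degradation complex, rose from 79.7 ± 3.34 to 104 ± 10.2 CPM (0.37, adjusted p = 0.0051). The core ligase SYVN1 (HRD1) and its partner SEL1L changed little and in opposite directions. SYVN1 rose by 0.10 (adjusted p = 0.022), a call lost when LG1, HG2 or HG3 was left out (adjusted p = 0.056, 0.059 and 0.053), at a minimum of 5 CPM (adjusted p = 0.081) and under quantile normalization, where the change was 0.039 (adjusted p = 0.32). SEL1L fell by 0.16 (adjusted p = 0.015), with an adjusted p of 0.072 under median-of-ratios scaling and a change of -0.25 under quantile normalization. DERL1 was at 0.813 to 0.834 of the SEL1L value at low and at 1.43 to 1.70 at high glucose. Summed over the 9 degradation genes, CPM went from 824 to 842 at low to 1021 to 1063 at high glucose, and without DERL1 and RNF185 from 594 to 602 to 611 to 642, so most of the rise in the sum lay in these 2 genes, which were chosen here after their values were seen.

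In the translocon, the channel subunits SEC61A1 (0.05) and SEC61B (0.06) were not called, and the small subunit SEC61G rose by 0.38 (SE 0.10, adjusted p = 0.02). SEC61G was at 101 to 107 CPM and then at 114 to 166 CPM, highest in HG1. It has the shortest transcript among the members (425 bases), its change was 0.29 without HG1, and its call was lost without LG4 (adjusted p = 0.052). SEC61B was at 191 CPM in HG1 and at 138 to 156 CPM in the other high glucose libraries, and its change was -0.04 without HG1. With the length trend removed it was called, at 0.17 (adjusted p = 0.014). Under median-of-ratios scaling SEC61A1 was called, at 0.092 (adjusted p = 0.029).

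The translocon-associated protein complex (TRAP), which helps substrates insert, showed opposite changes among its subunits. SSR3 was at 207, 211, 204 and 205 CPM at low and at 295, 270.5, 268 and 269.8 CPM at high glucose, a change of 0.41 (SE 0.03, adjusted p = 6.7e-05). Each high glucose library was above each low one, with HG1 the highest. SSR1 was at 214, 219, 215 and 215 CPM and then at 185, 188, 175 and 177 CPM, a change of -0.25 (SE 0.03, adjusted p = 1.9e-04). SSR2 was at 318, 309, 306 and 295 CPM and then at 278, 234, 229 and 247 CPM, a change of -0.32 (SE 0.06, adjusted p = 0.0048) that was -0.20 with the length trend removed.

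SSR4 was at 80.5, 76.5, 71.5 and 79.6 CPM and then at 64.5, 57.2, 47.5 and 44.7 CPM, a change of -0.53 (SE 0.12, adjusted p = 0.0077). SSR3 rose and the other TRAP subunits fell, without overlap between the groups in any of the 4. The ratio of SSR3 to SSR4 was 2.57 to 2.85 at low and 4.58 to 6.04 at high glucose, and the ratio of SSR3 to SSR1 was 0.95 to 0.966 and 1.44 to 1.60. Exons of SSR3 overlap another gene on the other strand over 25.4% of their bases.

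Compared per kilobase of canonical transcript, the levels of the members at low glucose spanned a wide range. CALR led with a mean of 869.6 CPM per kilobase, followed by PPIB with 657, P4HB with 627 and CANX with 436. At high glucose CALR was at 1217 CPM per kilobase, PPIB at 498, CANX at 487 and P4HB at 476. Apart from CREB3L1, ERN1 and ATF6 were the lowest, with 2.19 and 3.48 CPM per kilobase at low glucose and 3.19 and 3.75 at high glucose. DNAJB11 was at 50.9 and 78.4 CPM per kilobase, DNAJC3 at 29.7 and 49.0 and SIL1 at 20.1 and 9.99, beside 207 in both groups for HSPA5. Across the 45 members the change had a Spearman correlation of 0.21 with transcript length and of -0.14 with the low glucose level. Without HG1 the correlation with length was 0.30. These are descriptions with no test since the genes share libraries.

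In 98 further genes of these pathways, 34 rose, 35 fell and 29 were not called, with a median change of 0.01. These shares are near the 33.6% and 33.3% of all genes with a mean of at least 5 CPM, both with every library. Without HG1 34 rose and 41 fell, and no share of all genes is given for that fit. The regulators outside the member set held 4 higher and 8 lower of 14. PPP1R15A (GADD34) and PPP1R15B (CReP), which direct the phosphatase that reverses the PERK signal, rose by 1.16 (adjusted p = 6e-06) and 0.88 (adjusted p = 1.6e-06), and ATF6B, the paralog of ATF6, fell by 0.97 (adjusted p = 2.2e-06). DDIT3 (CHOP), the transcription factor of prolonged stress, was among the 2 that were not called (-0.02, adjusted p = 0.8). ATF4, translated when PERK is active, was among the 4 that rose (0.27, adjusted p = 0.014). ATF3 was also among the 4 that rose (0.63, adjusted p = 7.2e-04). TRIB3 was among the 8 that fell (-0.63, adjusted p = 4.6e-04). DDIT3, ATF4, ATF3 and TRIB3 were picked for mention after their values were seen.

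Further folding enzymes had 7 higher and 16 lower of 31, with falls in FKBP9 (-0.98, adjusted p = 2.1e-06), a prolyl isomerase of the ER, and PDIA5 (-0.83, adjusted p = 4.4e-06), and a rise in ERO1B (1.03, adjusted p = 1.9e-05), an oxidase that recharges disulfide isomerases. Further degradation genes had 11 higher and 7 lower of 25, led by the membrane ubiquitin ligase RNF139 (0.88, adjusted p = 1.5e-06). Genes of translocation and glycosylation had 12 higher and 4 lower of 28, among the former SEC61A2 (1.06, adjusted p = 4.4e-06), the paralog of SEC61A1, and SRP54 (0.31, adjusted p = 2e-05), the signal sequence binding subunit of the signal recognition particle. Without HG1, these lists had 6 higher and 18 lower folding enzymes, 11 higher and 7 lower degradation genes and 13 higher and 8 lower genes of translocation and glycosylation, and the regulators kept 4 higher and 8 lower. With all 8 libraries, 33.6% of all genes with a mean of at least 5 CPM rose and 33.3% fell. Whether the lists differ from that share was not tested.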

How the data were processed

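Per the labels, total RNA of MDA-MB-157 cells was sequenced on an Illumina HiSeq, and the submitters' processing notes name hg38 and edgeR. The authors deposited 1 table of CPM per gene, scaled with trimmed mean of M values factors, and the study's methods give hg19 for other samples, so which build underlies the table is open. Strand use in counting is not given in the sources used here. Of 21077 rows, 18 pseudoautosomal duplicates were dropped, and 856 of the 21059 genes tested are at 0 throughout. Between 72.2% and 74.0% of low values were whole reads (tolerance 0.01), so counts were not recovered and no count model was run.

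limma 3.58.1 in R 4.3.3 (lmFit, eBayes with trend, 2-sided, Benjamini-Hochberg) was fitted to log2(CPM + 1) of all genes with no covariate. This scale understates changes of low genes. The fit was tested on simulated data in which no library departed along transcript length. That test therefore cannot show how the departure of HG1 affects the calls. Alternatives were a pseudocount of 0.1, a minimum mean of 5 CPM, median-of-ratios scaling, quantile normalization, a replicate block, removal of a spline on transcript length, array weights and leaving out each library. Lengths and overlaps came from GENCODE release 44 on GRCh37, and shared 31-base words from its transcripts. Members and lists were chosen with earlier results of these data known. Any of the 45 members could be named. Values per library are given for the 6 regulators and for up to 4 members of each other role with the smallest adjusted p, and at most 3 genes of each further list are named by that order. DDIT3, ATF4, ATF3 and TRIB3 are named outside that order.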

Additional observations from a re-analysis of the deposited data

Results flagged for a closer look

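Dixon's ratio, the gap of an extreme library to its neighbour over the range of the group, was computed for each member in each group of 4, 90 groups in all. It exceeded the 95% critical value in 2 groups, and chance alone marks about 1 in 20. ERN1 at low glucose had LG3 far above the other 3 libraries (ratio 0.873, 18.5 CPM against 16.8 to 17.0 CPM). SSR3 at high glucose had HG1 far above the others (ratio 0.913, 295 CPM against 268 to 270.5 CPM), and its change was 0.41 with and 0.38 without HG1. What sets these libraries apart was not tested.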

How the results depend on the processing

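Of the 31 members called, 25 kept their call and direction under all 15 alternatives that could test them, and none reversed. The other 6 were MANF, CRELD2, P4HB, SEL1L, SYVN1 and SEC61G, each lost under 1 or more alternatives, and the cause was not tested. The count of members higher ranged from 14 to 18 and lower from 14 to 16 over the alternatives, and from 14 to 16 in both directions with 1 library left out. For the 98 further genes the counts were 29 to 41 higher and 27 to 43 lower, and 32 to 36 and 30 to 41 with 1 library left out. The replicate numbers share only a number: deviations of same-numbered libraries correlated by 0.052, -0.0048, 0.024 and -0.042. With the replicate block, 15 members were higher and 15 lower, CRELD2 (adjusted p = 0.086) and SYVN1 (0.052) lost their call, and ERP29 gained one (0.029). Of the further genes, 32 were higher and 31 lower with the replicate block.

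The log2 changes that turned sign belong to members that were not called. Under median-of-ratios scaling, which raised the median change of genes with at least 1 CPM from -0.04 by 0.04, HSPA5 was at 0.042, HSP90B1 at 0.027 and FKBP2 at 0.024. Under quantile normalization HSPA5 was at 0.10, HSP90B1 at 0.069, HYOU1 at -0.070, SDF2L1 at 0.052, ERP44 at -0.064 and SEC61B at -0.039. With the length trend removed, which could also remove a difference between the groups that runs along length, HSP90B1 was at 0.016, HYOU1 at -0.0071, SDF2L1 at 0.024 and FKBP2 at 0.099. With array weights (0.24 for HG1, 0.64 for HG4 and 1.17 to 1.52 for the rest), HYOU1 was at -0.0018 and SEC61B at -0.011. With 1 library left out, the change ranged from -0.039 to 0.019 for HSPA5, from -0.023 to 0.00077 for HSP90B1, from -0.0074 to 0.035 for HYOU1, from -0.24 to 0.019 for SDF2L1, from -0.075 to 0.061 for FKBP2, from -0.046 to 0.13 for SERPINH1 and from -0.042 to 0.11 for SEC61B.

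The length trend could not be removed for CREB3L1, which lies under 1 CPM, and the minimum of 5 CPM also left it out. Depth limits CREB3L1 alone among the members, and SDF2L1, at 5.07 to 9.32 CPM, is the next lowest.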
